A study of Arabidopsis thaliana with 16 samples.

Results

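Single-exon antisense lncRNAs were the newly assembled lncRNA transcripts of the deposited coordinate table that were placed antisense to an annotated gene, had 1 exon and had a row in the deposited table of FPKM values (fragments per kilobase of transcript, scaled to the mapped fragments of the library). There were 513 such transcripts from 512 loci, out of 1161 newly assembled lncRNAs with FPKM values and 1212 with coordinates. A further 8 single-exon antisense transcripts had coordinates but no FPKM values, and 4 of those lay on the mitochondrial chromosome. They were read beside the 445 spliced antisense and the 93 intergenic lncRNAs of the same tables.

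The RNA came from wild-type Arabidopsis thaliana (Col-0) seedlings that were 10 days old, separated into roots and shoots. Pi-sufficient (P+) medium held 1.25 mM KH2PO4, and in Pi-deficient (P-) medium this salt was replaced by 0.65 mM K2SO4. Each RNA was split into a poly(A)+ fraction, bound to oligo(dT) beads, and a poly(A)- fraction, depleted of ribosomal RNA, which gave 8 groups of 2 libraries and 16 libraries in all. All groups shared the genotype, the age and the remaining medium, and whole roots or whole shoots of many cell types were pooled, so fewer cells of a type and less RNA per cell cannot be told apart.

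An antisense lncRNA is read from the strand opposite a gene, so its sequence is the reverse complement of part of that gene. In Arabidopsis such transcripts are known at loci such as FLC, a repressor of flowering, where the antisense RNA takes part in silencing FLC. A transcript with a single exon has no splice junction, and a junction is what shows the strand of an RNA when the library itself does not keep it. Plants short of phosphate switch on a large set of genes through PHR1, a transcription factor that binds the P1BS element GNATATNC, and most RNA polymerase II products carry a poly(A) tail whereas many RNA polymerase III products do not.

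The labels gave the alignment setting that uses strand (first-strand) for shoot replicate 1 and root replicate 2, and the unstranded setting for shoot replicate 2 and root replicate 1, although the study described all libraries as strand-specific. Where the strand was not used, reads from a lncRNA and from the gene opposite cannot be told apart. The root columns of the FPKM tables were numbered 2 and 3, so these libraries are called library 2 and library 3 and their strand setting is not known from the column names. As a check of the labels, 10 of 10 Pi starvation markers such as IPS1, SPX1 and SQD2 were higher in P- roots and in P- shoots in poly(A)+ RNA at an adjusted p of 0.05, and 6 and 7 of 10 were in poly(A)- RNA. Summed over 10 leaf markers, roots held between 137.0 and 673.1 FPKM and shoots between 15000 and 24880 FPKM, and summed over 11 root markers, roots held between 550.5 and 1526 FPKM and shoots between 5.87 and 63.2 FPKM.

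The 513 lncRNAs lay on all 5 nuclear chromosomes, with 128, 90, 103, 75 and 117 on chromosomes 1 to 5, and 265 were on the plus strand. They were between 207 and 6385 bases long with a median of 1005 bases, shorter than the spliced antisense lncRNAs with a median of 1361 bases. Their median GC share was 42.9%, against 41.0% in the spliced set. A protein-coding gene lay on the other strand of 497 of them (96.9%), and 411 of these 497 (82.7%) lay wholly inside that gene, compared with 213 of 416 (51.2%) of the spliced antisense lncRNAs. The 3' end of the gene was overlapped by 43, the 5' end by 33, and 10 spanned the whole gene.

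What these single-exon lncRNAs faced was mostly coding sequence. The median share of their bases opposite CDS was 75.3% and opposite UTR 16.2%, and 313 of 497 (63.0%) faced no intron base, against 204 of 416 (49.0%) of the spliced set. The gene opposite had no intron in 178 cases (35.8%), compared with 26.7% for spliced antisense lncRNAs and 18.9% of all 27444 protein-coding genes. The start codon was covered by 334 (67.2%), the stop codon by 246 (49.5%) and both by 157 (31.6%). In the later annotation that came with the TAIR10.1 reference, 16 had at least 50% of their bases covered by a gene on their own strand, of which 11 were protein-coding.

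P1BS, the element that PHR1 binds, occurred within 2000 bases upstream of the start in 187 (36.5%) of the single-exon antisense lncRNAs, beside 37.3% of the spliced antisense lncRNAs and 37.0% of protein-coding genes, and within 500 bases in 59 (11.5%), beside 8.1% and 10.7%. The element is its own reverse complement, so both strands were covered. For lncRNAs inside a gene, this upstream stretch can begin within the gene opposite, and how much of it lies there was not measured. The sites within 500 bases of 10 P1BS-bearing lncRNAs whose Pi values are described below are shown here with 8 flanking bases on each side, read 5′ to 3′ on the strand of the lncRNA from the TAIR10.1 genome, with the element in capitals.
XLOC_013732 opposite HDG8, chr3:754882-754905, plus strand: agtttcaaGAATATACagattgtc
XLOC_013732 opposite HDG8, chr3:755031-755054, plus strand: atttttatGAATATTCttctttat
XLOC_013732 opposite HDG8, chr3:755334-755357, plus strand: cttccacaGCATATTCcctcactc
XLOC_013661 opposite CYP94B2, chr3:312345-312368, plus strand: ctttgtttGTATATTCaaggggaa
XLOC_000354 opposite RPS15A, chr1:2407514-2407537, plus strand: ggttcaaaGCATATGCtttcgaag
XLOC_031202 opposite CML43, chr5:17918127-17918150, minus strand: ggtgcgaaGAATATCCtcgcaact
XLOC_014746 opposite AT3G21300, chr3:7492839-7492862, plus strand: gaagagaaGAATATGCgttgacaa
XLOC_004968 opposite GAI, chr1:5151346-5151369, minus strand: ttaaaagaGCATATTCatgagaat
XLOC_005614 opposite AT1G27660, chr1:9621964-9621987, minus strand: gataccaaGAATATTCtaaacaca
XLOC_025622 opposite DIC3, chr5:2948953-2948976, plus strand: aaaaaaagGAATATACcaaatgaa
XLOC_025622 opposite DIC3, chr5:2948983-2949006, plus strand: cagcaaaaGTATATCCcccaagtc
XLOC_006489 opposite TBL7, chr1:18082345-18082368, minus strand: atttcagaGAATATGCttttgtct
XLOC_010338 opposite AT2G37890, chr2:15862111-15862134, plus strand: attcctctGTATATCCctttgaag
The first base of the element stood 492, 343 and 40 bases before the start of XLOC_013732, and 25 bases before that of XLOC_000354. Sites farther upstream, and those of other lncRNAs, are not shown.

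A TATAAA box within 100 bases upstream was found at 58 (11.3%) of the single-exon antisense lncRNAs, 8.8% of the spliced ones and 17.9% of protein-coding genes. An AATAAA signal lay in the last 60 bases of 22 (4.3%), against 8.3% of the spliced antisense lncRNAs and 8.4% of all newly assembled lncRNAs. These motifs were searched on the strand of the transcript only. The windows below are those of the lncRNA with opposite Pi responses in the 2 tissues, of the one opposite CASP1, and of a pair opposite glycine-rich protein genes, with TATAAA in capitals and 12 bases on each side.
XLOC_006685 opposite AT1G52618, chr1:19603589-19603618, minus strand: accaaatggagtTATAAAttgttttgttct
XLOC_010238 opposite CASP1, chr2:15160309-15160338, plus strand: ttcacttaaagaTATAAAatatgcattaaa
XLOC_024801 opposite AT4G33610, chr4:16147026-16147055, minus strand: ctcttgccgctaTATAAActcaatcgcata
XLOC_002826 opposite AT1G55990, chr1:20942390-20942419, plus strand: ctcttgccactaTATAAActcaatcgcata
The last 2 windows come from different chromosomes and read almost alike. Of the words of 31 bases in these lncRNAs, 29.2% in XLOC_024801 and 27.5% in XLOC_002826 occurred elsewhere in the nuclear genome, so reads can be shared between the copies and their values are uncertain.

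Repeats were absent from most of the 513. No 31-base word was repeated or in an organelle genome in 362 of them. At least 10% of the words were repeated or in an organelle genome in 51, and at least 50% were repeated in 10. Of the lncRNAs chosen to be named, 13 reached that 10%, and not all of them are marked in the text. For 2 lncRNAs of chromosome 2, XLOC_008656 and XLOC_011336, 97.9% and 98.3% of the words also occurred in an organelle genome. The start codons of CAB2 and LHB1B1, which both encode chlorophyll a/b-binding proteins of the light-harvesting complex, show how close copies can be on the antisense strand. The windows give 60 bases of each lncRNA ending with the reverse complement of the start codon, CAT, in capitals.
XLOC_001577 opposite CAB2, chr1:10475833-10475892, plus strand: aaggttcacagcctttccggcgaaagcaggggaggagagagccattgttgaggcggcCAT
XLOC_012822 opposite LHB1B1, chr2:14524818-14524877, minus strand: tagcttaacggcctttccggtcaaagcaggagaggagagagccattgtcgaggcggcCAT
In these lncRNAs 39.1% and 31% of the words were repeated in the nuclear genome, and their levels are given below as uncertain between copies.

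The single-exon antisense lncRNAs had higher median levels than the spliced antisense and the intergenic lncRNAs. In poly(A)+ RNA the median level was 4.90 and 6.68 FPKM in P+ roots and 5.10 and 6.81 FPKM in P- roots. It was 4.06 and 2.18 FPKM in replicates 1 and 2 of P+ shoots and 5.90 and 3.40 FPKM in P- shoots. The spliced antisense lncRNAs had medians between 2.71 and 4.73 FPKM in these root libraries and between 1.25 and 1.71 FPKM in the shoot libraries, so the single-exon median was the higher one in each of them, narrowly in P+ root library 2, with 4.90 beside 4.73 FPKM. The intergenic medians were between 1.23 and 2.35 FPKM in roots and between 0.106 and 0.481 FPKM in shoots. Protein-coding transcripts had medians between 5.18 and 6.07 FPKM in roots and between 4.01 and 4.54 FPKM in shoots, a range that overlapped that of the single-exon antisense lncRNAs. The sets are not alike, since the lncRNAs were assembled from these same libraries. The coding set held 4237 of 35176 transcripts at 0 in every library, which lowers its medians.

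Medians were lower in most poly(A)- libraries. In roots they were between 3.05 and 4.77 FPKM. Shoot medians were 0.0227 and 0.690 FPKM for P+ and 2.81 and 1.70 FPKM for P-, and between 138 and 186 of the 513 were listed at 0 in a shoot poly(A)- library. In the study most reads of the shoot poly(A)- libraries mapped to organelle genomes, and organelle reads were removed. These libraries thus held the fewest nuclear reads, and the part of depth in these zeros was not tested. At least 1 FPKM in every library was reached by 59 (11.5%), compared with 8.54% of spliced antisense, 2.15% of intergenic lncRNAs and 35.9% of protein-coding transcripts, while 510 reached it in some library. These are descriptions of level, given per length, with no test.

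**Figure D1:**
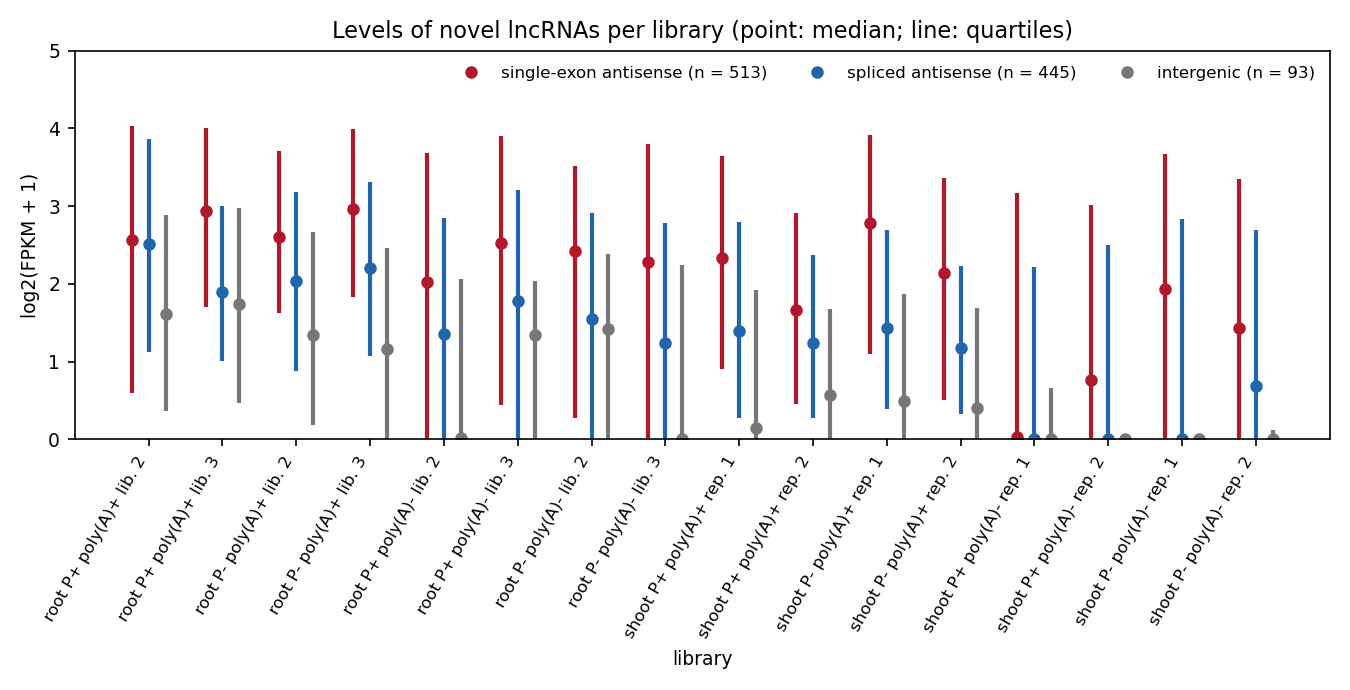
Levels of 3 sets of newly assembled lncRNAs in each of 16 libraries, on the log2(FPKM + 1) scale, with points at the median and lines from the lower to the upper quartile. The single-exon antisense median, between 4.90 and 6.81 FPKM in root poly(A)+ libraries, was above the spliced and the intergenic median in every library, and it fell to 0.0227 FPKM in a shoot poly(A)- library.

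Replicates of the shoots differed in one direction. In P+ shoots, poly(A)+ replicate 1, with the first-strand setting, was higher than replicate 2 for 288 of 376 single-exon antisense lncRNAs (76.6%), with a median log2 difference of 0.70, and in P- shoots for 301 of 405 (74.3%), with a median of 0.64. The spliced antisense lncRNAs had medians of 0.30 and 0.39, and protein-coding transcripts of -0.04 and -0.04. The single-exon medians in poly(A)- RNA were 0.04 and 0.36. For the root libraries a comparison of the 2 settings was possible only among transcripts the authors had selected as Pi-responsive, and there the median differences were 0.30 and -0.09 in poly(A)+ and 0.05 and 0.02 in poly(A)- RNA. With 1 replicate for each setting in a group, the setting and the replicate cannot be told apart.

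Most single-exon antisense lncRNAs that differed between tissues were higher in roots. Differences were tested with limma on log2(FPKM + 1), and a tissue difference was called at a fold of 2 and an adjusted p of 0.05 over all transcripts tested. In poly(A)+ RNA 478 of the 513 had the mean of at least 1 FPKM needed for the test, and 122 were higher and 47 lower in roots than in shoots. Of all 27395 transcripts tested, 20.9% were higher and 13.5% lower, so the lncRNAs had a share of 25.5% against 20.9% and of 9.83% against 13.5%. Of 441 tested in poly(A)- RNA, 78 were higher and 31 lower in roots, where 18.2% and 10.2% of all transcripts were called. Of the 122 lncRNAs higher in roots in poly(A)+ RNA, 55 (45.1%) were also called higher in poly(A)- RNA, which is 70.5% of the 78 called there, and over all transcripts the shares were 62.6% and 71.6%. The fold is on the log2(FPKM + 1) scale, which understates changes of low transcripts. The median difference of all transcripts was 0.31 in poly(A)+ RNA and became 0.07 after the libraries were rescaled to a common median ratio over coding transcripts, which gave 105 higher and 57 lower lncRNAs. Only 80 lncRNAs, 47 of them higher in roots, were called in poly(A)+ RNA when shoot replicate 2 was left out, an alternative chosen after seeing the data that leaves 1 library in each shoot group and assumes that it varies like the root groups. In that fit the shares were 9.73% higher and 6.83% lower, beside 10.1% and 7.82% of all transcripts, so the lncRNA share higher in roots was not above that of all transcripts.

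The 47 lncRNAs lower in roots in poly(A)+ RNA included 4 opposite photosynthesis genes. All 4 lncRNAs on the strand opposite a gene with photosystem, chlorophyll or RuBisCO in its product name were lower in roots, in both fractions and with a median log2 difference of -6.86 in poly(A)+ RNA, where all transcripts had a median of 0.31. XLOC_012822 is opposite LHB1B1, a light-harvesting chlorophyll-binding protein. It had 1753 and 1268 FPKM in P+ shoots and 1882 and 1186 FPKM in P- shoots in poly(A)+ RNA, and 0.390, 0.733, 1.34 and 0.531 FPKM in the 4 root libraries. The tissues did not overlap, and the log2 difference was -9.77 ± 0.25 (SE; limma adjusted p 3.12e-06). LHB1B1 itself had 2036 and 1140 FPKM in P+ shoots and 2204 and 1227 FPKM in P- shoots, close to the lncRNA in each library, and differed by -9.64. The lncRNA opposite PSBTN, a small subunit of photosystem II, was the most abundant in poly(A)+ RNA. XLOC_014731 had between 1367 and 3148 FPKM in the 4 shoot libraries and between 13.0 and 56.9 FPKM in the roots, a log2 difference of -6.11 ± 0.36 (SE; limma adjusted p 2.72e-05). XLOC_001577, opposite CAB2, had 1430 and 1120 FPKM in P+ and 443.5 and 217.9 FPKM in P- shoots in poly(A)+ RNA. In shoot poly(A)- RNA it had 4050 and 3367 FPKM in P+ and 2011 and 1739 FPKM in P-. Every shoot poly(A)- library was above every shoot poly(A)+ library for XLOC_001577, whereas root libraries of either fraction held at most 10.3 FPKM. CAB2 itself had between 342.2 and 1415 FPKM in shoot poly(A)+ and between 395.9 and 1463 FPKM in shoot poly(A)- RNA, and these ranges overlapped. Also lower in roots in poly(A)+ RNA were XLOC_032377, opposite AT5G65610, by -5.51, and XLOC_011708, opposite a lipid transfer protein gene, LTP, by -3.99, where LTP differed by -6.88 (log2).

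The root-high lncRNAs below were chosen in order of p, and the kinds of genes opposite were not compared between the tissues. XLOC_012631, opposite ORP1A, an oxysterol-binding protein family member, with 12.9% of its 31-base words repeated, had 64.4 and 29.6 FPKM in P+ roots and 28.1 and 20.3 FPKM in P- roots, and at most 0.0576 FPKM in shoot poly(A)+ RNA. That difference of 5.04 ± 0.31 (SE, log2) had a limma adjusted p of 3.41e-05, and ORP1A differed by 3.81. XLOC_009075 overlaps the 3' end of SQN, a cyclophilin with a role in microRNA activity. It had 213.2, 88.7, 110.8 and 71.5 FPKM in root poly(A)+ RNA, whereas the shoot libraries held 2.49 FPKM in 1 of 4 and no more than 0.01 FPKM in the others. The log2 difference of 6.35 for XLOC_009075 stood beside 1.11 for SQN, which had between 12.8 and 20.6 FPKM in roots and between 3.05 and 11 FPKM in shoots. The pair of repeated lncRNAs shown above, XLOC_024801 and XLOC_002826, was between 114.5 and 203.9 FPKM in root poly(A)+ RNA and at most 20.6 FPKM in shoots. XLOC_021184 in poly(A)- RNA, opposite SHM4, a serine hydroxymethyltransferase, had between 71.6 and 189.3 FPKM in roots and at most 0.194 FPKM in shoots.

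By product name of the gene opposite, the tissue calls in poly(A)+ RNA were 4 higher in roots and 0 lower of 7 transporters, 5 higher and 1 lower of 13 cytochrome P450 genes, 3 higher of 3 extensins and 3 higher of 3 disease resistance genes. Of all transcripts tested there, 20.9% were higher and 13.5% lower in roots, and the short lists were not tested against these shares. Of the 31-base words, 66.3% and 64.5% were repeated in XLOC_020833 and XLOC_020835, opposite extensin-like genes. In XLOC_027407 and XLOC_027410, opposite genes with disease resistance in the product name, 14.8% and 19.8% were repeated. The values of these 4 lncRNAs are thus uncertain between copies. The transporters included SULTR1;2, the main root sulfate uptake carrier, and ZIP12, a zinc transporter family member. Among the 38 tested of 39 lncRNAs opposite genes with kinase in the product name, 4 were higher and 7 lower in roots. The word match does not mean that each of these genes encodes a kinase. The lower ones included XLOC_005289 and XLOC_005290 opposite WAK1 and XLOC_005292 opposite WAK2, cell wall-associated kinases. Of 16 tested lncRNAs opposite transcription factor or zinc finger genes, 2 were higher and 2 lower.

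Under Pi starvation, 32 single-exon antisense lncRNAs were higher and 34 lower in P- than in P+ roots in poly(A)+ RNA, called where the fold reached 2 with p at 0.05 or below before adjustment. Among all transcripts 6.50% and 5.50% were called in these directions, and for the lncRNAs the shares were 6.69% and 7.11%. At an adjusted p of 0.05, 5 were called, where 1.18% of all transcripts were. In P- shoots 41 were higher and 11 lower, 8.58% beside 7.55% and 2.30% beside 5.40%, and 6 passed the adjusted p, where 1.92% of all transcripts did. No shoot call passed it in the 4 fits that left out a shoot library, whereas 22 did with shoots fitted alone and 46, of them 33 higher and 13 lower, with shoots fitted alone and the replicate number as a block, and in roots between 0 and 49 did when 1 library was left out, with 49 without root P+ library 3. The median log2 change of the tested lncRNAs was 0.00086 in roots and 0.21 in shoots, beside 0.06 and 0.11 for all transcripts. Single libraries moved these medians: that of shoots was 0 without P+ replicate 2 or P- replicate 1 and 0.45 and 0.48 without P+ replicate 1 or P- replicate 2, and that of roots was 0.22 without P+ library 3, while the median of all transcripts stayed between 0.09 and 0.12 in these fits. The split of the shoot calls moved too, to 22 higher and 14 lower and 22 and 16 without the first 2 of these libraries, and to 49 and 4 and 48 and 9 without the next 2. One library weighed on the root count, since 132 lncRNAs were called without root P+ poly(A)+ library 3. With the replicate number as a block, 94 were called in shoots at the unadjusted threshold, 65 higher and 29 lower, against 63 in the same shoot fit without the block, and 34 in the first-strand shoot libraries alone.

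Calls shared between the tissues and fractions were counted at the unadjusted threshold. Of 32 lncRNAs higher in P- roots, 3 (9.38%) were among the 41 higher in P- shoots (7.32%), where of all transcripts called 335 were shared, 18.8% of the root and 16.2% of the shoot calls. The 3 were those opposite RPS15A, HDG8 and AT3G21300, and all 3 carried P1BS within 500 bases. Those lower in both tissues were XLOC_008155 and XLOC_016203. Of the 41 higher in P- shoots in poly(A)+ RNA, 5 (12.2%) were among the 35 called higher in poly(A)- RNA (14.3%), opposite RPS15A, PGDH, WAK1, BLH1 and HB34, and over all transcripts these shares were 27.7% and 28.1%. The shares were not tested against each other.

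XLOC_013732 is antisense to HDG8, a homeodomain transcription factor of the GLABRA2 family, and 80.4% of it faced coding sequence. It was listed at 0 in both P+ root libraries and had 5.03 and 4.44 FPKM in P- roots in poly(A)+ RNA. In shoots it had 0 and 0.705 FPKM in P+ and 9.39 and 8.88 FPKM in P-. The P+ and P- libraries did not overlap in either tissue. On the log2(FPKM + 1) scale, where a difference from 0 depends on the added 1, the changes were 2.52 ± 0.42 in roots and 2.96 ± 0.42 in shoots (SE; limma adjusted p 0.0479 and 0.0244). HDG8 had at most 0.0674 FPKM in P+ roots, 1.20 and 1.97 FPKM in P- roots, at most 0.144 FPKM in P+ shoots and 2.96 and 1.78 FPKM in P- shoots, below its antisense lncRNA in each of these P- libraries. The root call of XLOC_013732 was lost when 5 FPKM was added in place of 1, with a log2 change of 0.96.

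XLOC_000354 faced mostly UTR of RPS15A, which encodes a protein of the small cytosolic ribosomal subunit. In poly(A)+ RNA it had 22.6 and 20.8 FPKM in P+ shoots and 233.0 and 215.4 FPKM in P- shoots, and in roots 219.8 and 84.5 FPKM in P+ and 477.0 and 338.4 FPKM in P-. Its poly(A)- levels were 15.6 and 4.08 FPKM in P+ and 165.7 and 90.2 FPKM in P- shoots, and 20.5 and 35.5 FPKM in P+ and 278.6 and 193.2 FPKM in P- roots. It was higher in P- in all 4 pairs of groups, with no overlap. The log2 changes were 3.31 ± 0.44 in poly(A)+ shoots, 1.55 ± 0.44 in poly(A)+ roots, 3.75 ± 0.61 in poly(A)- shoots and 3.06 ± 0.61 in poly(A)- roots (SE), of which the first had a limma adjusted p of 0.0223 and the others 0.166, 0.078 and 0.173. RPS15A did not follow it: the gene had 438.4 and 532.5 FPKM in P+ and 470.8 and 582.9 FPKM in P- shoots in poly(A)+ RNA, and in poly(A)- shoots it went from 465.1 and 401.3 FPKM to 122.0 and 220.1 FPKM, a log2 change of -1.39.

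**Figure D2:**
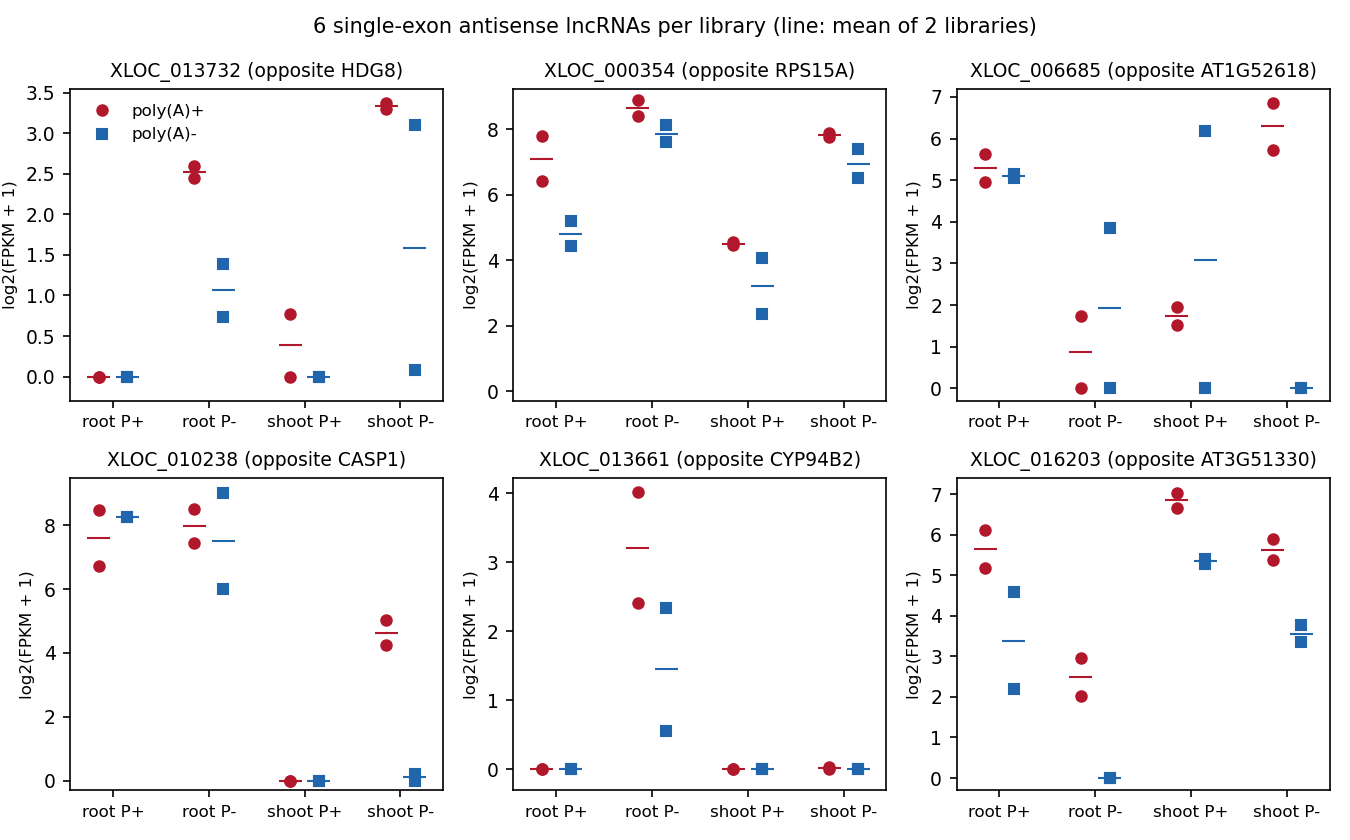
Levels of 6 single-exon antisense lncRNAs in each library, on the log2(FPKM + 1) scale, by tissue and Pi supply, with poly(A)+ as red circles, poly(A)- as blue squares and a line at the mean of 2 libraries. The lncRNA opposite RPS15A was higher in P- in all 4 pairs of groups, and the one opposite AT1G52618 fell from 29.9 and 48.7 FPKM to 0 and 2.36 FPKM in poly(A)+ roots but rose from 2.90 and 1.86 FPKM to 114.2 and 52.3 FPKM in poly(A)+ shoots.

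Among the lncRNAs higher in P- roots were those opposite CYP94B2, AT2G47550, RLP48 and AT1G11330. XLOC_013661, inside CYP94B2, a cytochrome P450 of a family that oxidises jasmonate conjugates and fatty acids, had 0 and under 0.01 FPKM in P+ and 15.2 and 4.32 FPKM in P- roots. CYP94B2 itself went from 0.239 and 1.47 FPKM to 10.9 and 5.81 FPKM, a log2 change of 2.36 (limma adjusted p 0.0445), and the lncRNA by 3.21 ± 0.58 (SE; adjusted p 0.0616). XLOC_013570 faced AT2G47550, a gene of the invertase and pectin methylesterase inhibitor superfamily, and went from under 0.01 and 0.942 FPKM to 14.4 and 16.9 FPKM, with the gene moving from 3.88 and 6.33 FPKM to 31.4 and 19.8 FPKM (log2 change 2.12, limma adjusted p 0.0233). The lncRNA did not pass the adjusted p, at 0.0678. XLOC_013571, a second lncRNA opposite the same gene, was also called before adjustment, and these were the calls among 3 lncRNAs opposite pectin-related genes. XLOC_023663, opposite the receptor-like protein gene RLP48, had under 0.01 and 0.237 FPKM in P+ and 5.10 and 7.49 FPKM in P- roots, while the summed level of RLP48 changed by -0.04 (log2). XLOC_004766, opposite a lectin receptor kinase gene, AT1G11330, had under 0.01 FPKM in both P+ and 3.09 and 3.76 FPKM in P- roots. Neither passed the adjusted p, at 0.0549 and 0.0723.

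Of the 5 calls at the adjusted p in roots, 4 were decreases. XLOC_016203 faced AT3G51330, an aspartyl protease gene, and had 68.9 and 35.1 FPKM in P+ and 3.05 and 6.78 FPKM in P- roots, a log2 change of -3.16 ± 0.45 (SE; limma adjusted p 0.0303). XLOC_008222, opposite AT2G01580, fell from 23.1 and 23.5 FPKM to under 0.01 and 1.78 FPKM in poly(A)+ roots. XLOC_008222 in poly(A)- roots moved the other way, from under 0.01 and 2.02 FPKM to 16.5 and 7.49 FPKM, with log2 changes of -3.86 (limma adjusted p 0.0315) and 2.81 (0.315). XLOC_008155, opposite AT1G80380, a P-loop nucleoside triphosphate hydrolase gene, fell from 15.1 and 20.2 FPKM to 2.22 and 2.29 FPKM (log2 change -2.51, limma adjusted p 0.0361), and AT1G80380 from 164.6 and 259.6 FPKM to 32.3 and 69.2 FPKM (log2 change -2.10, adjusted p 0.0302). XLOC_030671, inside AT5G35926, went from 10.9 and 13.3 FPKM to 2.03 and 0.863 FPKM and did not pass the adjusted p, at 0.0639.

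Higher in P- shoots were the lncRNAs opposite CASP1 and CML43. XLOC_010238 lies inside CASP1, which builds the Casparian strip of the root endodermis. It was at 0 and under 0.01 FPKM in P+ shoots and had 18.1 and 31.6 FPKM in P- shoots in poly(A)+ RNA, with 104.3, 354.6, 174.5 and 361.4 FPKM in the root libraries. The shoot change was 4.64 ± 0.62 (SE, log2; limma adjusted p 0.0228), and CASP1 itself went from 0.652 and 2.27 FPKM to 18.8 and 10.4 FPKM, a log2 change of 2.70 (adjusted p 0.0106). XLOC_031202, which spans CML43, a calmodulin-like calcium sensor gene, had 0.0707 and 0 FPKM in P+ and 7.57 and 5.09 FPKM in P- shoots, and between 14.2 and 23.9 FPKM in roots. Its shoot change was 2.80 ± 0.38 (SE, log2; limma adjusted p 0.0232). Root markers moved with both: the summed level of 11 root markers, CASP1 among them, was 8.20 and 9.75 FPKM in P+ shoots and 63.2 and 52.4 FPKM in P- shoots in poly(A)+ RNA, with 1 and 2 markers at 1 FPKM or more in P+ and 10 of 11 in both P- libraries. None of the 11 was at 0 in P- shoots, and 5 and 1 were at 0 in P+. The part of root cells or root-type expression in these changes was not tested.

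Fewer lncRNAs fell in shoots. XLOC_009159, opposite AT2G17300, had 7.69 and 5.21 FPKM in P+ and 0.826 and 0.0764 FPKM in P- shoots. XLOC_005358 covers part of AT1G22330, an RNA-binding protein gene, and had 36.5 and 26.0 FPKM in P+ and 4.43 and 9.58 FPKM in P- shoots, with a log2 change of -2.07 beside -1.97 for the gene (limma adjusted p 0.0943 and 0.012). XLOC_021003 lies opposite MTA, the mRNA adenosine methylase, and had 3.80 and 2.59 FPKM in P+ and under 0.01 and 0.123 FPKM in P- shoots. XLOC_024128, opposite AT4G21740, had 36.5 and 32.1 FPKM in P+ and 7.93 and 18.3 FPKM in P- shoots. None of these passed the adjusted p, and the calls of XLOC_008155, XLOC_021003 and XLOC_024128 in shoots were lost in 2 of 8 fits that each left out 1 library.

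The Pi response itself differed between roots and shoots for 66 lncRNAs at the unadjusted threshold, 27 with the higher change in roots and 39 with the higher change in shoots. Of all transcripts 6.76% and 8.16% were called in these directions, beside 5.65% and 8.16% of the lncRNAs. At the adjusted p 1 was called, as were 0.183% of all transcripts, and none was in 6 of the 8 fits that each left out 1 library. Without root P+ poly(A)+ library 3 there were 124 calls, and with the first-strand shoot libraries alone 34.

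That 1 lncRNA was XLOC_006685, a 382-base transcript inside AT1G52618, which encodes an uncharacterised protein. In poly(A)+ RNA it had 29.9 and 48.7 FPKM in P+ roots and 0 and 2.36 FPKM in P- roots, but 2.90 and 1.86 FPKM in P+ shoots and 114.2 and 52.3 FPKM in P- shoots. P+ and P- did not overlap in either tissue, and the order was reversed. The change was -4.42 ± 0.65 in roots and 4.55 ± 0.65 in shoots (SE, log2), and their difference of -8.97 ± 0.92 had a limma adjusted p of 0.0262. AT1G52618 had 10.7 and 5.06 FPKM in P+ and 1.89 and 2.94 FPKM in P- roots, and 2.89, 7.90, 12.1 and 3.89 FPKM in the shoot libraries, which overlapped between P+ and P-. The lncRNA in poly(A)- shoots had 71.7 FPKM in P+ replicate 1 and was listed at 0 in the other 3 libraries. Opposite 2 zinc finger homeodomain genes the same order was seen at the unadjusted threshold. XLOC_015217, opposite HB34, went from 21.4 and 17.0 to 7.75 and 4.86 FPKM in roots and from 11.1 and 7.41 to 48.6 and 25.9 FPKM in shoots. XLOC_004950, opposite HB32, went from 7.29 and 14.0 FPKM to under 0.01 and 2.88 FPKM in roots and from 4.12 and 2.92 to 25.4 and 16.2 FPKM in shoots. Their interactions of -3.34 and -4.75 (log2) had limma adjusted p values of 0.0752 and 0.0989. The other direction was led by the lncRNAs opposite RLP48, AT1G19970, AT3G29680 and CYP94B2, with interactions of 2.69, 2.49, 2.02 and 3.20 (log2) and adjusted p values between 0.143 and 0.155.

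Poly(A)- RNA gave fewer Pi calls in roots. There 10 lncRNAs were higher and 16 lower in P-, 2.27% and 3.63% of the 441 tested beside 3.11% and 3.60% of all transcripts. With limma none passed the adjusted p, at which 0.0291% of all transcripts passed, and 26 had an unadjusted p under 0.05. On simulated data for poly(A)- roots the adjusted p recovered 0% of 4-fold and 30.5% of 8-fold changes. Without root P+ poly(A)- library 2, 45 were called. XLOC_009075 at SQN was under 0.01 FPKM in both P+ root libraries and had 61.6 and 20.6 FPKM in P-, a log2 change of 5.20 ± 0.69 (SE; limma adjusted p 0.0867), whereas in poly(A)+ roots its P+ and P- values, given above, overlapped. XLOC_007620, opposite CYCD1;1, a D-type cyclin of the cell cycle, had 83.0 and 18.6 FPKM in P+ and under 0.01 FPKM in both P- root libraries (limma adjusted p 0.134). Others called there were XLOC_021273, opposite a glucosyltransferase-like gene, with a log2 change of 3.40, XLOC_019911, opposite an F-box gene, with -3.50, and XLOC_010836, opposite a RING/U-box gene, with -2.90. XLOC_001577 at CAB2 went from 2.62 and 1.22 FPKM to 10.3 and 9.01 FPKM in poly(A)- roots, small levels beside those of the shoots.

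In poly(A)- shoots 35 lncRNAs were higher and 14 lower in P-, 7.94% and 3.17% beside 7.41% and 4.53% of all transcripts, and 3 passed the adjusted p, beside 0.269%, but none in any of the 8 fits that left out 1 library. After rescaling to a common median ratio the counts were 29 higher and 21 lower. Leaving out shoot P- poly(A)- replicate 2 gave 77 calls, and the first-strand shoot libraries alone 84. XLOC_005108 lies at the 3' end of PGDH, which makes the first step of serine synthesis in plastids. It had under 0.01 and 0.125 FPKM in P+ and 16.7 and 26.6 FPKM in P- shoots, a log2 change of 4.38 ± 0.43 (SE; limma adjusted p 0.0272), and PGDH rose from 11.4 and 11.9 FPKM to 73.5 and 57.8 FPKM (log2 change 2.39, adjusted p 0.0228). In poly(A)+ shoots XLOC_005108 had 1.24 and 1.52 FPKM in P+ and 19.1 and 7.14 FPKM in P-, again with no overlap. XLOC_010226, opposite the homeodomain gene BLH1, had 0.271 and under 0.01 FPKM in P+ and 93.1 and 57.3 FPKM in P- shoots, while BLH1 had 44.4 and 52.1 FPKM in P+ and 52.3 and 84.2 FPKM in P- shoots. XLOC_003047, opposite the splicing factor gene AT1G60200, was under 0.01 FPKM in both P+ libraries and had 52.2 and 25.5 FPKM in P-. Both had a limma adjusted p of 0.041. The lower ones included XLOC_009817, opposite the beta-galactosidase gene BGAL8, with 227.9 and 114.9 FPKM in P+ and 20.3 and 12.3 FPKM in P-, and XLOC_003525, opposite the signalling peptide gene CLE12, with 8.28 and 6.46 FPKM in P+ and 0 in both P- libraries. XLOC_000097, opposite a glycine-rich protein gene, changed by -3.90 (log2).

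**Figure D3:**
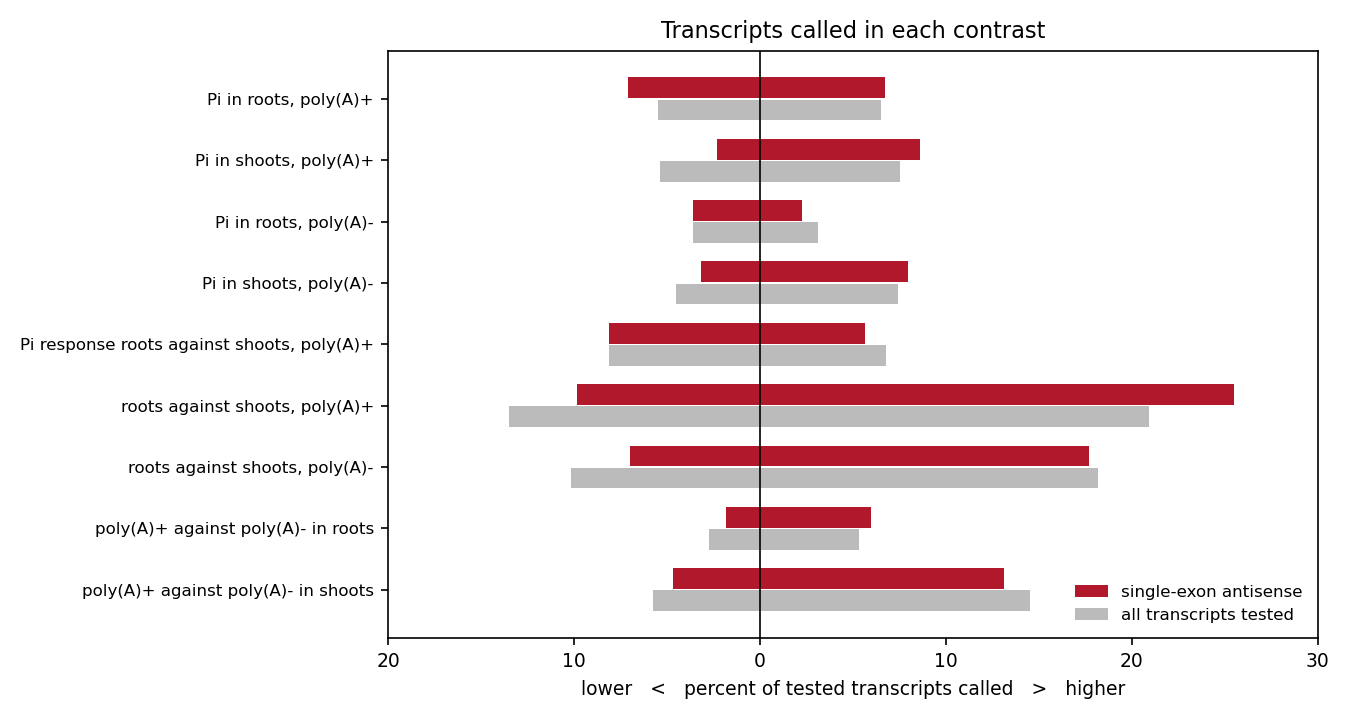
Percent of tested transcripts called higher (right) or lower (left) in each contrast, for single-exon antisense lncRNAs in red and all transcripts tested in grey. The lncRNA share ran from 1.84% to 25.5%, and in P- shoots poly(A)+ RNA it was 2.30% lower beside 5.40% of all transcripts.

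Calls were also counted by P1BS. In poly(A)+ roots 13 of 57 lncRNAs with P1BS within 500 bases were called (22.8%), 9 higher and 4 lower, and 53 of 421 without it (12.6%). Within 2000 bases, 31 of 178 (17.4%) were called, 15 higher and 16 lower, beside 35 of 300 (11.7%). In poly(A)+ shoots 8 of 57 with the element within 500 bases were called, all 8 higher (14.0%), beside 44 of 421 without it (10.5%), and within 2000 bases the shares were 10.7% and 11%. In poly(A)- shoots 26 of 170 (15.3%) were called beside 23 of 271 (8.49%) within 2000 bases. Within 500 bases they were 7 of 50 (14.0%) beside 42 of 391 (10.7%). In poly(A)- roots the shares were 5.88% and 5.9% within 2000 bases and 6.0% and 5.88% within 500 bases. These counts carry no test. Among P1BS-bearing lncRNAs, XLOC_005614, opposite the bHLH gene AT1G27660, had 1.46 and 4.08 FPKM in P+ and 95.7 and 47.1 FPKM in P- roots. XLOC_014746 had 10.6 and 5.86 FPKM in P+ and 81.3 and 33.7 FPKM in P- roots, while AT3G21300 opposite had between 2.15 and 4.32 FPKM there. XLOC_004968, opposite GAI, a DELLA repressor of gibberellin signalling, had 3.77 and 3.18 FPKM in P+ and 14.8 and 15.5 FPKM in P- roots. XLOC_025622, opposite the mitochondrial dicarboxylate carrier gene DIC3, was listed at 0 in P+ shoots and had 14.8 and 8.90 FPKM in P- shoots, but in P- roots it had under 0.01 and 16.9 FPKM. None of these 4 passed the adjusted p in these contrasts. XLOC_006489, opposite TBL7, went from 0.179 and 0.352 FPKM to 5.85 and 1.89 FPKM in poly(A)+ roots and was called before adjustment (limma adjusted p 0.258). XLOC_010338, opposite a mitochondrial carrier gene, was too low for the test in poly(A)+ RNA, at most 1.47 FPKM. XLOC_020833, opposite the extensin-like gene AT4G08400, had 29.2 and 12.8 FPKM in P+ and 65.3 and 25.7 FPKM in P- roots, which overlapped, and 66.3% of its 31-base words were repeated in the genome.

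By product name of the gene opposite, Pi calls were spread over many lists. Of all transcripts tested, 6.50% were called higher and 5.50% lower in poly(A)+ roots, and 7.55% and 5.40% in poly(A)+ shoots. In poly(A)- shoots 7.41% were called higher. The lists are short, and their counts were not tested against these shares. Of 38 tested lncRNAs opposite genes with kinase in the product name, 3 were higher in P- roots and 3 in P- shoots in poly(A)+ RNA, with none lower. In poly(A)- shoots 6 of 34 were higher. For cytochrome P450 genes, 2 of 13 were higher in roots, opposite CYP71A12 and CYP94B2, and 2 lower, opposite CYP82C4 and CYP82C2, which make antimicrobial and iron-mobilising compounds. Of 7 opposite transporter genes 2 were higher in P- roots, including that of ZIP12, and 1 in P- shoots. Of the 4 opposite photosynthesis genes 2 were lower in P- roots, opposite PSBTN and AT3G63540, and none was called in poly(A)+ shoots. The summed level of 10 leaf markers was lower in the same libraries, at 673.1 and 332.3 FPKM in P+ and 220.5 and 203.7 FPKM in P- roots in poly(A)+ RNA, with none at 0, and their part in these calls was not tested. In poly(A)+ shoots XLOC_001577 opposite CAB2 was not called, although its values did not overlap, at 1430 and 1120 FPKM in P+ and 443.5 and 217.9 FPKM in P-. CAB2 went from 1415 and 897.5 FPKM to 632.8 and 342.2 FPKM there. The P+ and P- values of XLOC_012822 and XLOC_014731 overlapped in poly(A)+ shoots. XLOC_008029 opposite SULTR1;2, XLOC_003248 opposite MAKR2 and XLOC_013840 opposite AT3G05345, also discussed in the study, had limma adjusted p values between 0.289 and 0.45 in poly(A)+ RNA of both tissues and were not called there. Of 16 tested opposite transcription factor or zinc finger genes, 2 were higher in P- roots and 2 higher and 1 lower in P- shoots, and of 5 opposite ribosomal protein genes 2 were higher in roots and 1 in shoots. Opposite phosphatase genes 1 of 3 was higher and opposite peroxidase genes 1 of 2 lower in roots, the 2 opposite F-box, 3 opposite extensin and 3 opposite disease resistance genes gave no call in poly(A)+ RNA, and no lncRNA lay opposite a gene named for xyloglucan or expansin.

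The levels of the lncRNA and of the gene opposite moved together. Over 443 pairs tested in poly(A)+ RNA, Spearman's rho of the log2 differences was 0.79 between roots and shoots, 0.54 for the Pi change in shoots and 0.42 for that in roots, and over 413 pairs in poly(A)- RNA it was 0.69, 0.42 and 0.34. These are correlations across transcripts within the same libraries, which share alignment and strand setting, and are given as descriptions. The spliced antisense lncRNAs had 0.69, 0.49 and 0.41 in poly(A)+ RNA. Of the 155 lncRNAs called between tissues in poly(A)+ RNA, 148 had the sign of the gene, and in 119 the gene was called in that direction as well. For the Pi change in shoots this was so for 45 of 48, with 22 genes called, and in roots for 45 of 60, with 18 genes called. Within libraries, rho of the levels over 496 pairs was between 0.39 and 0.72. In poly(A)+ shoots it was 0.72 and 0.66 in replicate 1, with the first-strand setting, and 0.54 and 0.55 in replicate 2, with the unstranded setting. The lncRNA was above its gene in between 93 and 148 of the 496 pairs of a library.

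**Figure D4:**
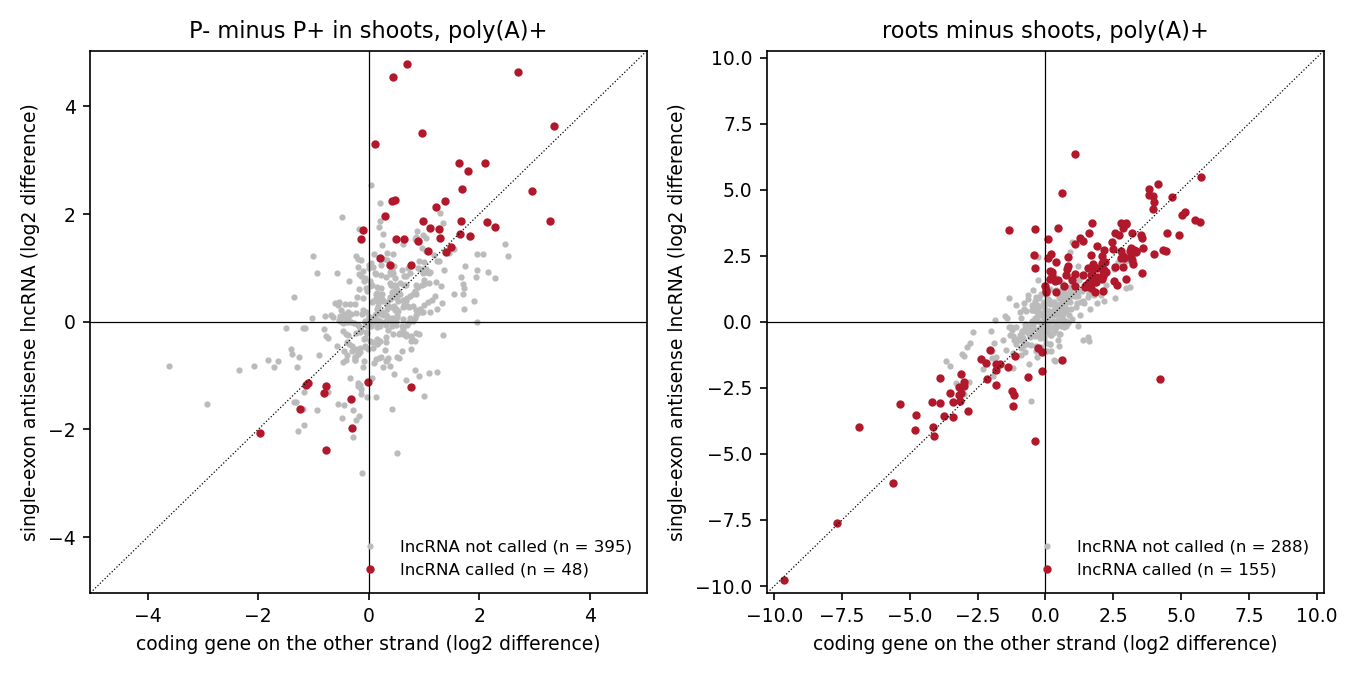
Log2 difference of each single-exon antisense lncRNA (vertical) against that of the coding gene on the other strand (horizontal), for P- minus P+ in poly(A)+ shoots and for roots minus shoots in poly(A)+ RNA, over 443 pairs each, with called lncRNAs in red and a dotted line of equal change. Most red points share the sign of the gene, 45 of 48 on the left and 148 of 155 on the right, and the red point at 4.23 and -2.17 on the right is XLOC_016203.

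Pairs in which both were called in opposite directions were few. XLOC_016203 and AT3G51330 differed most plainly: the lncRNA had 130.8, 99.6, 58.1 and 40.8 FPKM in shoot poly(A)+ RNA and 68.9, 35.1, 3.05 and 6.78 FPKM in roots, while the gene had between 2.12 and 4.59 FPKM in shoots and between 54.6 and 133.5 FPKM in roots. The log2 differences between roots and shoots were -2.17 and 4.23, and in poly(A)- RNA -2.76 and 5.08. XLOC_014746 was higher in roots by 3.47 with AT3G21300 lower by -1.35 (log2). The others were XLOC_000354 and RPS15A in poly(A)- shoots, described above, XLOC_011093 and AT2G03980 for the difference in Pi response, at -5.84 and 1.52, and XLOC_030217 and AT5G27430 for the fractions in shoots, at -1.99 and 1.24.

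Fractions were compared in 2 ways. FPKM of a fraction are relative to its own total, so a ratio of fractions is not an absolute share of molecules. Among lncRNAs with at least 0.1 FPKM in some library and a value above 0 in the condition read, by the study's rule of a ratio of mean poly(A)+ to mean poly(A)- FPKM of at least 2 or at most 0.5, 188 of 504 (37.3%) were poly(A)+ and 102 (20.2%) poly(A)- in P+ roots, and 182 (35.7%) and 83 (16.3%) of 510 in P- roots. In shoots 236 of 491 (48.1%) were poly(A)+ and 118 (24.0%) poly(A)- in P+, and 206 (41.9%) and 122 (24.8%) of 492 in P-. Protein-coding transcripts had between 25.3% and 34.7% in the poly(A)+ class and between 14.0% and 20.9% in the poly(A)- class, and spliced antisense lncRNAs between 41.2% and 50.4% and between 16.2% and 29.9%. Of 471 lncRNAs classed in all 4 conditions 40 were poly(A)+ in all, 11 poly(A)- in all and 26 between in all, so 16.3% kept 1 class, beside 18% of spliced antisense lncRNAs, 39.7% of intergenic lncRNAs and 32.8% of protein-coding transcripts. Each class rests on means of 2 libraries, and the shoot poly(A)- libraries held the fewest nuclear reads, as given above. In shoots 37 went from poly(A)+ in P+ to poly(A)- in P- and 30 the other way.

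**Figure D5:**
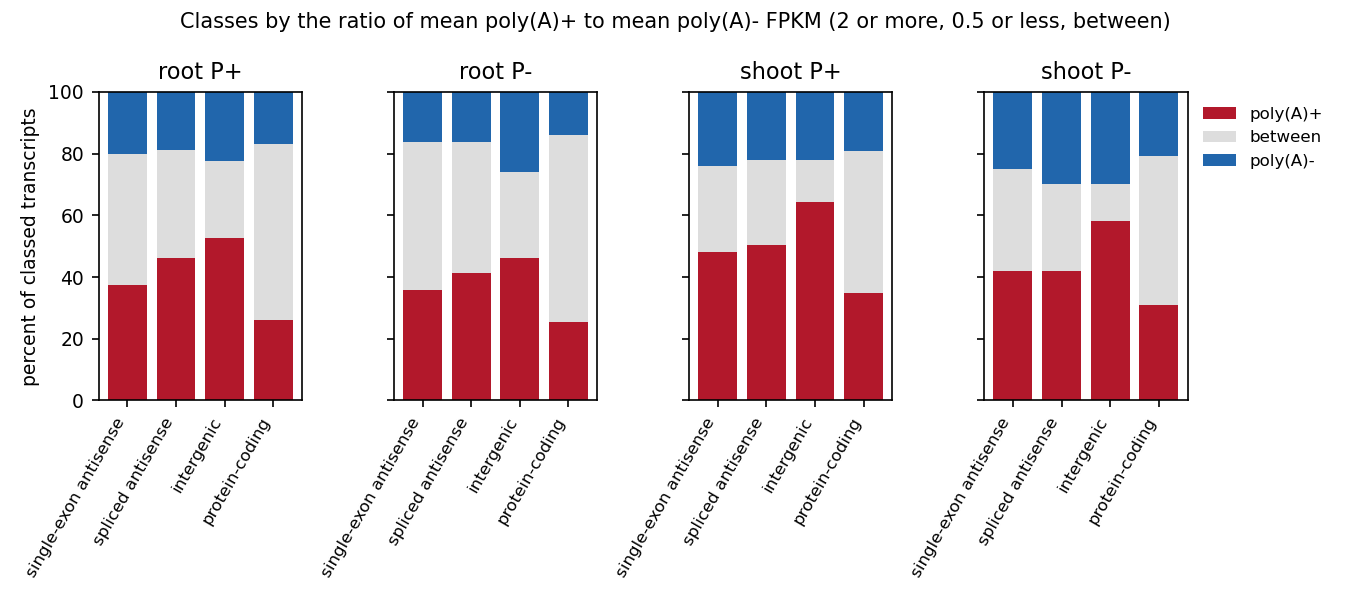
Percent of classed transcripts in the poly(A)+ class (red), between (grey) and in the poly(A)- class (blue), for 4 sets of transcripts in each tissue and Pi supply. Single-exon antisense lncRNAs had between 35.7% and 48.1% in the poly(A)+ class and between 16.3% and 24.8% in the poly(A)- class.

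Far fewer differed between fractions by the test, called at a fold of 2 and an adjusted p of 0.05. Of 488 tested, 29 were higher in poly(A)+ and 9 higher in poly(A)- RNA in roots, 5.94% beside 5.32% and 1.84% beside 2.76% of all transcripts. In shoots 64 were higher in poly(A)+ and 23 in poly(A)- RNA, 13.1% beside 14.5% and 4.71% beside 5.75%. The root count fell to 16 without root P- poly(A)+ library 3 and was between 20 and 25 without library 2 of that group, without root P+ poly(A)- library 2, without root P- poly(A)- library 3 or without either replicate of P+ poly(A)+ shoots, and the shoot count fell to 48 when replicate 1 or 2 of P+ or of P- poly(A)+ shoots was left out, and to 27 with the first-strand shoot libraries alone. Both tissues called 11 higher in poly(A)+ (37.9% of the root and 17.2% of the shoot calls) and 5 higher in poly(A)- RNA (55.6% and 21.7%), where the shares over all transcripts were 61.5% and 22.6%, and 60.8% and 29.2%.

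The poly(A)- side was led by a transcript at a 7SL RNA locus and by copies of organelle sequence. XLOC_022857 is a 305-base transcript opposite AT7SL-1, a locus named for 7SL RNA, the RNA of the signal recognition particle, which is made by RNA polymerase III and lacks a poly(A) tail. It had 11090, 27150, 14000 and 14020 FPKM in root and 9168, 8250, 20890 and 6072 FPKM in shoot poly(A)- RNA, against between 378.8 and 2510 FPKM in poly(A)+ RNA, with no overlap. The strand of the 7SL RNA at this locus was not checked, so an RNA antisense to it and the 7SL RNA itself cannot be told apart. The log2 difference was -4.23 ± 0.56 in roots (SE; limma adjusted p 0.00257). The gene opposite, annotated as protein-coding, was listed at 0 in 15 of 16 libraries and under 0.01 FPKM in the other, and 21.1% of the lncRNA's 31-base words were repeated in the genome. XLOC_008656 had between 25 and 60.3 FPKM in poly(A)- and between 0.395 and 2.31 FPKM in poly(A)+ RNA, and XLOC_011336 between 48.5 and 216.2 and between 0.445 and 4.93 FPKM. As given above, nearly all words of both also occurred in an organelle genome, so their reads cannot be placed with certainty. XLOC_011582, opposite G3Pp5, a glycerol-3-phosphate permease gene, had between 20.8 and 27.9 FPKM in shoot poly(A)- and between 2.77 and 8.40 FPKM in shoot poly(A)+ RNA.

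On the poly(A)+ side, XLOC_000951 lies opposite AT1G18540, a gene of the ribosomal protein L6 family. It had 803.2, 346.1, 639.3 and 255 FPKM in shoot poly(A)+ RNA and 36.3, 0.320, 0.431 and 0.241 FPKM in shoot poly(A)- RNA, a log2 difference of 7.24 ± 0.80 (SE; limma adjusted p 0.000261), while AT1G18540 differed by 0.56. In roots the same lncRNA had between 516.0 and 1689 FPKM in poly(A)+ and between 442.8 and 1448 FPKM in poly(A)- RNA, which overlapped. XLOC_003815, opposite AT1G74060, a second gene of that family, was also abundant, between 114.2 and 807.1 FPKM in poly(A)+ RNA, and between 13.5 and 1392 FPKM in poly(A)- RNA. XLOC_018831 had no coding gene opposite in the TAIR10.1 annotation. It had between 26.7 and 73.8 FPKM in poly(A)+ RNA of both tissues, 4.70, 5.05, 5.87 and 3.19 FPKM in root poly(A)- RNA, and 5.54 FPKM in 1 and 0 in 3 shoot poly(A)- libraries, so the fractions did not overlap. XLOC_005157, opposite MYB47, a MYB transcription factor gene, had 9.25, 9.26, 26.8 and 5.49 FPKM in shoot poly(A)+ RNA and no more than 0.01 FPKM in any shoot poly(A)- or any root library.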

How the data were processed

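The authors sequenced dUTP libraries from 16 RNA samples, aligned reads to TAIR10 with TopHat2, removed organelle reads and assembled transcripts with Cufflinks over all libraries. They dropped transcripts overlapping annotated exons on the same strand or annotated lncRNA exons on the other strand. Short ones and those with coding potential (CPC) were dropped too, and FPKM were estimated with eXpress. TopHat2, TAIR10 and DESeq2 are named in the submitters' processing notes. The deposited FPKM values are relative to each library's total, and read counts and depth were not used here, so no counting interval is given. The deposited fold change, p-value and cluster columns hold the authors' own comparisons and were not used.

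Values were taken as log2(FPKM + 1) and tested with limma 3.58.1 in R 4.3.3 (group means, eBayes with trend, two-sided, Benjamini-Hochberg adjusted over all transcripts of the 3 tables with a mean of at least 1 FPKM). The 8 libraries of a fraction were fitted together for Pi and tissue, and all 16 for the fractions. Groups have 2 libraries, so p-values measure the spread between these. Values below 0.01 FPKM are printed as under 0.01 FPKM, and the level of a gene is its FPKM summed over transcripts. On data simulated for Pi in poly(A)+ roots (27395 transcripts, 200 changed), the unadjusted call recovered 47.5% of 2-fold, 86.5% of 4-fold and 96% of 8-fold changes. It called 2.91% to 3.29% of the unchanged, and with the adjusted p 0%, 21.5% and 66% were recovered. In poly(A)- roots the shares were 32.5%, 77% and 92% unadjusted and 0%, 0% and 30.5% adjusted. The changed ones were drawn from all tested transcripts, mostly coding, with a mean log2(FPKM + 1) above 2. Between P+ root poly(A)+ libraries the log2 difference had a standard deviation of 1.93 for the lncRNAs and 1.32 for coding transcripts. Recovery for the lncRNAs alone was not simulated.

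Transcripts named were those called with a group mean of at least 2 FPKM and groups that did not overlap, in order of p, up to 5 per direction for Pi in poly(A)+, 3 in poly(A)-, 4 and 2 for the tissues, 3 for the fractions and 4 for the difference in Pi response, with the most abundant, those named by the study and the genes opposite. Others were named after their values were seen, as exceptions or overlaps. The members and lists were chosen with earlier results of these data known. Alternatives were the added value, the filter, rescaling, leaving out each library, each tissue fitted alone, the replicate block in shoots, and the first-strand shoot libraries alone, chosen after seeing the data. Starts in the coordinate table count from 0, since 1339 of 1351 introns (99.1%) then had splice-site ends and 0 otherwise, and positions are printed from 1. Sequences and annotation came from the TAIR10.1 RefSeq genome. Shoot replicate numbers go with the strand setting. Deviations of same-numbered shoot libraries correlated at 0.166 in poly(A)+ and 0.0426 in poly(A)- RNA.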

Additional observations from a re-analysis of the deposited data

Results flagged for a closer look

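The Pi response of XLOC_006685, opposite AT1G52618, differed between the tissues by a test of the difference itself. Its log2 change in roots minus that in shoots was -8.97 ± 0.92 (SE; limma adjusted p 0.0262), and it was the 1 lncRNA of 478 tested that passed. Before adjustment it kept its call in all 8 fits that each left out 1 poly(A)+ library, while 6 of these fits gave no lncRNA past the adjusted p.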

How the results depend on the processing

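Read depth was not used, so how far low values are limited by counting was not tested, and 2 libraries a group limit every test. The limit bears most on the shoot poly(A)- libraries, which held the fewest nuclear reads. For the 64 calls of named lncRNAs, 1013 values were computed under alternatives: 996 kept direction and call, 17 kept direction only and 0 reversed. These calls had been chosen from the same libraries for low p and groups that did not overlap. Leaving out a library could therefore not reverse their direction, and the tally is no independent check of them. Counts of called lncRNAs moved more. With a mean of at least 5 FPKM required, they were 38 for Pi in poly(A)+ roots (66 as reported), 15 in poly(A)- roots (26), 32 in poly(A)- shoots (49), 41 for the difference in Pi response (66) and 20 for the fractions in roots (38), with fewer lncRNAs tested. With 5 FPKM added, they were 29 for Pi in poly(A)+ shoots (52) and 54 for the fractions in shoots (87). With the first-strand shoot libraries alone, chosen after seeing the data, they were 34 and 84 for Pi in poly(A)+ and poly(A)- shoots, 34 for the difference in Pi response, 80 for the tissues in poly(A)+ RNA and 27 for the fractions in shoots. With roots fitted alone, 40 were called for Pi in poly(A)- roots. Shoots fitted alone with the replicate block gave 94 for Pi in poly(A)+ RNA, and the block moved no other count of calls by over 1.5 times. For roots no paired analysis was run. Their columns carry the same library numbers in each group, but this numbering differs from that of the replicates in the labels. Whether equal numbers mark paired root libraries was not tested. Leaving out each library gave between 50 and 132 for Pi in poly(A)+ roots, 32 and 45 in poly(A)- roots, 36 and 66 in poly(A)+ shoots, 46 and 77 in poly(A)- shoots, 44 and 124 for the difference in Pi response, 130 and 189 and 82 and 107 for the tissues in poly(A)+ and poly(A)- RNA, and 16 and 47 and 48 and 85 for the fractions in roots and shoots. A ratio of 4 gave poly(A)- classes of 48 and 40 in P+ and P- roots and 58 and 68 in shoots, adding 1 FPKM before the ratio gave a poly(A)+ class of 150 in P+ shoots, and a 500-base window left 59 lncRNAs with P1BS. Apart from these construction effects, the cause was not tested.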

Other observations

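Calls of Pi changes were also counted after the libraries were rescaled to a common median ratio. In poly(A)+ shoots all transcripts went from 2068 higher and 1479 lower to 1650 and 1987, while the single-exon antisense lncRNAs went from 41 and 11 to 39 and 14. In poly(A)+ roots all transcripts went from 1782 and 1508 to 1349 and 1831, and the lncRNAs from 32 and 34 to 24 and 37. In poly(A)- shoots all transcripts went from 2037 and 1246 to 1537 and 1704, and the lncRNAs from 35 and 14 to 29 and 21.

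Within each shoot replicate alone the median log2 Pi change of the lncRNAs in poly(A)+ RNA was 0.23 in replicate 1 and 0.25 in replicate 2, beside 0.10 and 0.11 for protein-coding transcripts. The sign was shared by both replicates for 280 of 408 lncRNAs (68.6%), beside 76.1% of protein-coding transcripts. In poly(A)- RNA it was shared by 175 of 361 (48.5%), beside 56.4%.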
